A study of Mus musculus with 4 samples.

Results

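Phospho-CREB occupancy was examined at 40 mouse genes that build autophagosomes, select their cargo and equip the lysosome. They were chosen by name, for their place in the pathway, with no measured value in the rule, though with earlier results of these data known. All 40 were found among the 22225 protein-coding genes of the annotation. Chromatin of MC3T3-E1, a pre-osteoblast line from mouse, was precipitated with an antibody to CREB phosphorylated at Ser 133. The control group received DMSO vehicle for 1 h and the treated group 100 nM forskolin for 1 h, with 2 libraries each that the labels call biological replicates. Both groups are the same unmodified line, and all libraries thus represent a single cell line rather than bone tissue. No expression was measured, and a peak near a gene says nothing by itself about its transcription.

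Autophagy encloses cytoplasm in a double membrane that fuses with the lysosome, where proteases degrade the contents. An initiation kinase complex and a class III PI3-kinase complex start the membrane, ubiquitin-like conjugation attaches Atg8 proteins to it, and receptors tether cargo to those proteins. Forskolin activates adenylyl cyclase, and the cAMP it raises activates protein kinase A, which phosphorylates CREB. In liver, CREB is known as a fasting-induced activator of autophagy genes such as Ulk1, Atg7 and Tfeb, while TFEB, TFE3 and MITF drive lysosomal genes through the E-box-like CLEAR element.

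Peaks had been called in each library separately, giving 14686 and 10180 in vehicle and 25566 and 19371 in forskolin. Merging peaks that shared at least 1 bp gave 28335 regions, of which 8930 (31.5%) had a peak in all 4 libraries. A further 5187 regions (18.3%) had a peak in both forskolin libraries and neither vehicle library and are called forskolin-only, against 125 vehicle-only regions of the reverse kind. Scores have no stated scale, so each peak is given by its list percentile, its rank by score within its own library's list. If the smallest score step is 1 sequence tag, forskolin replicate 2 had 0.347 of the depth of forskolin replicate 1, and its peaks rest on fewer tags (a median of 36 steps at the occupied promoters of the 40 genes, against 134 in forskolin replicate 1). None of the 10 osteoblast markers, 5 adipocyte markers or 5 haematopoietic markers checked had a peak region common to all 4 libraries within 1 kb of a start site, and 1 of 5 skeletal muscle markers (Actn3) did. Forskolin-only regions lay within 10 kb of 5 of the osteoblast, 1 of the adipocyte, 0 of the haematopoietic and 2 of the muscle markers, against 8.88% of all protein-coding genes. Because peaks do not measure expression, those counts do not test the cell type label. With 2 libraries against 2, a two-sided exact permutation test of 1 value cannot give a p below 0.333, so differences are described by whether the treatments overlap.

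The sequences below are those on which the promoter results turn: the 3 promoter regions with a full cAMP response element (CRE, TGACGTCA), and 2 with its shorter core (TGACG or its complement CGTCA). All are from build NCBIM37 (mm9), 5′ to 3′ on the strand of the gene, and capitals mark CRE letters and, in Atg5, also an E-box (CACGTG). They span chr10:43988075-43988163 (plus strand) for Atg5, chr2:155101952-155102032 (plus) for Map1lc3a, chr11:101163590-101163617 (minus) for Becn1, chr6:114593051-114593148 (plus) for Atg7 and chr8:114464417-114464567 (plus) for Gabarapl2. The first 4 were occupied in every library at high percentiles, and Gabarapl2 had the largest rank rise under forskolin. The CRE is centred 16 bp upstream of the start site in both Atg5 and Map1lc3a and 4 bp upstream in Becn1.
Atg5: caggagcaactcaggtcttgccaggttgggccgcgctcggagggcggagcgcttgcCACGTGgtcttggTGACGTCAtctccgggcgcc
Map1lc3a: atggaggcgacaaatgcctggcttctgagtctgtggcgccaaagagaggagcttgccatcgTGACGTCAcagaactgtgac
Becn1: gctcccgtcgTGACGTCActtctggtcc
Atg7: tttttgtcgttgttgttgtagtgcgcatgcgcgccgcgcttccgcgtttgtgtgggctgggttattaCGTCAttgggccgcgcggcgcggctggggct
Gabarapl2: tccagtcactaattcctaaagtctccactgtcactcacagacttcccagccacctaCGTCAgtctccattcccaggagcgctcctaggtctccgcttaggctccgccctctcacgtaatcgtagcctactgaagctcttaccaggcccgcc

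A further set shows regions whose calls differed between the treatments and 1 lysosomal case. Ulk1 (chr5:111239117-111239207, minus strand) is a forskolin-only region at the start site, and the printed window holds no CRE letters. Uvrag (chr7:106291813-106291963, minus) is an upstream region with a full CRE whose peak was absent from 1 vehicle list and in the lower part of the other. Ctsd (chr7:149573814-149573841, minus) carries the single CLEAR element (TCACGTGA) found at a promoter of the list. Atg14 (chr14:48188095-48188120, minus), also forskolin-only at its start site, carries an E-box. Capitals mark the CRE in Uvrag, the CLEAR element in Ctsd and the E-box in Atg14.
Ulk1: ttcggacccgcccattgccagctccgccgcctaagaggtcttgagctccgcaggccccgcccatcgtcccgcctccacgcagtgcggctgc
Uvrag: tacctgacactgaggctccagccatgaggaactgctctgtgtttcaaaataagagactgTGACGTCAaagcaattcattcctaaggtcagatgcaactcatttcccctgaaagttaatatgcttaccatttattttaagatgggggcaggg
Ctsd: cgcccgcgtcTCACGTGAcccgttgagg
Atg14: aacaaaatccCACGTGactggccctg

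Phospho-CREB occupied most autophagy promoters with and without forskolin. At 28 of 40 genes (70%) a region called in all 4 libraries was centred within 1 kb of a start site. Over all protein-coding genes the share was 30.4%, and it was 55% over the 12264 genes that had some region within 10 kb. All 5 Atg8 genes had such a region, as did 3 of 4 initiation genes, 3 of 4 class III PI3-kinase genes, 4 of 5 lipid supply genes and 7 of 10 conjugation genes. It was present at 2 of 4 cargo receptor genes, 2 of 3 MiT factor genes and 2 of 5 lysosomal membrane and protease genes. The 12 genes without were Ulk1, Atg14, Wipi1, Atg10, Atg4a, Atg4b, Optn, Bnip3, Tfe3, Lamp1, Lamp2 and Ctsb. The 28 genes held 29 such regions, since Nbr1 had 2, and 27 of the 29 were centred within 250 bp of a start site, with a median distance of 74 bp. Over all promoter regions of this class 87.8% lay within 250 bp, with a median of 64 bp. At 7 of the 29 (those of Atg13, Rb1cc1, Atg2b, Atg3, Atg12, Sqstm1 and Nbr1) another gene's start site also lay within 1 kb, which was true of 15.2% of all such promoter regions.

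**Figure D1:**
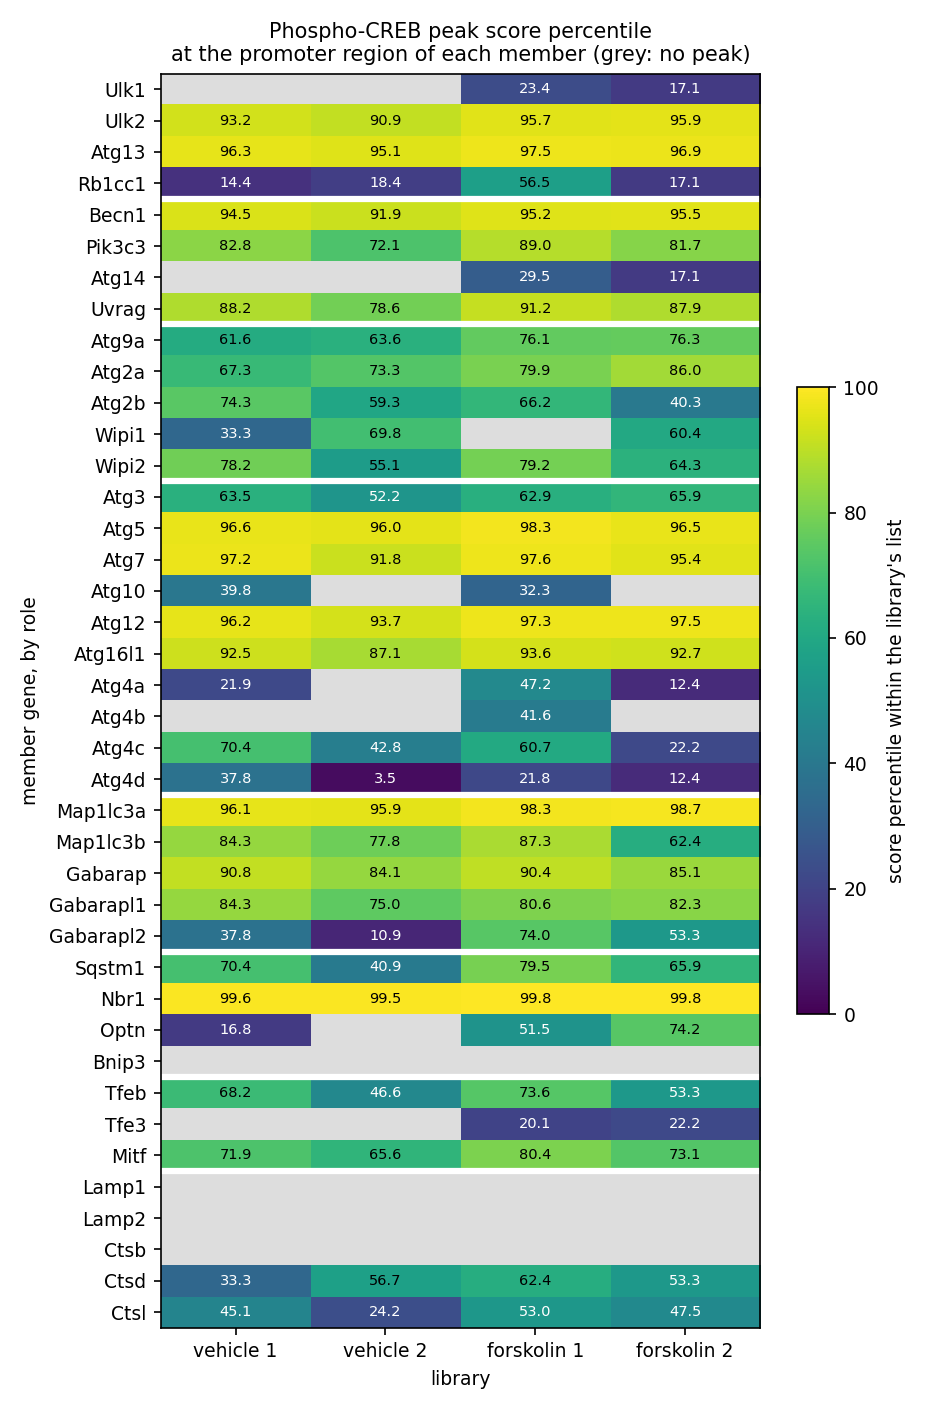
Score percentile of the phospho-CREB peak at the promoter of each of the 40 genes (rows, by role) in each library (columns), on a colour scale from 0 to 100. Each gene has 1 region, and grey marks no called peak in it. Wipi1 is grey in forskolin replicate 1, although its adjoining region had a peak there. Nbr1, Map1lc3a, Atg5, Atg12 and Atg13 stayed above 93 in all 4 libraries. Ulk1, Atg14 and Tfe3 had values only in both forskolin libraries, and Atg4b in forskolin replicate 1 alone.

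The initiation complex divided between its kinases. Ulk2, one of the 2 related kinases that respond to nutrient state, had a promoter peak at list percentiles 93.2 and 90.9 in vehicle and 95.7 and 95.9 in forskolin. Atg13, the adaptor that links the kinase to its scaffold, stood at 96.3 and 95.1 in vehicle and 97.5 and 96.9 in forskolin. Both were among the strong peaks of every list. Ulk1, the other kinase, had no vehicle peak within 1 kb of its start, and its promoter peak stood at 23.4 and 17.1 in the forskolin lists. A different region in the first part of the Ulk1 gene, intronic and 1622 bp downstream of the start, was called in all 4 libraries at 43.4 and 56.7 in vehicle and 74.6 and 77.4 in forskolin. Ranked only among regions called in all 4 libraries, its treatments overlapped (22.0 and 52.3 against 45.0 and 60.1). Rb1cc1, which encodes the scaffold FIP200, had a weak promoter peak, at an internal start site, of 14.4 and 18.4 in vehicle and 56.5 and 17.1 in forskolin, and the treatments overlapped.

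Among the class III PI3-kinase genes, Becn1 had the strongest promoter peak. Becn1 encodes the regulatory subunit Beclin 1, and its peak over the full CRE stood at 94.5 and 91.9 in vehicle and 95.2 and 95.5 in forskolin. Pik3c3, the catalytic subunit, stood at 82.8 and 72.1 in vehicle and 89.0 and 81.7 in forskolin. Uvrag, a subunit of the later-acting form of the complex, had a promoter peak without a CRE core at 88.2 and 78.6 in vehicle and 91.2 and 87.9 in forskolin. All 3 promoters were thus occupied in each library. A further Uvrag region, 2234 bp upstream with the full CRE printed above, had no peak in vehicle replicate 1, stood at 34.5 in vehicle replicate 2, and reached 89.1 and 87.2 in forskolin. Atg14, the subunit that directs the complex to the forming autophagosome, had a promoter peak only in forskolin, at 29.5 and 17.1.

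The lipid supply and PI3P-binding genes had promoter peaks of middle rank. Atg9a, a lipid scramblase of the vesicles that seed the membrane, stood at 61.6 and 63.6 in vehicle and 76.1 and 76.3 in forskolin. Of the lipid transfer genes, Atg2a stood at 67.3 and 73.3 in vehicle against 79.9 and 86.0 in forskolin. Atg2b stood at 74.3 and 59.3 against 66.2 and 40.3, and its treatments overlapped on this scale. Wipi2, which reads PI3P and recruits the conjugation machinery, had a promoter peak in all libraries (78.2 and 55.1 in vehicle, 79.2 and 64.3 in forskolin) and a second, forskolin-only intronic region 946 bp downstream (55.2 and 64.3). Wipi1 had adjoining regions at its start site, each called in 3 libraries, which became a single region of all 4 libraries when peaks within 500 bp were joined.

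Promoter peaks of the conjugation genes ranged from percentiles above 90 in every library to missing. Atg5, Atg7 and Atg12 act in the conjugation that places Atg8 proteins on the membrane: ATG7 is the E1-like enzyme and ATG12 is attached to ATG5. Atg5 stood at list percentiles 96.6 and 96.0 in vehicle and 98.3 and 96.5 in forskolin. Atg7 stood at 97.2 and 91.8 in vehicle and 97.6 and 95.4 in forskolin, and Atg12 at 96.2 and 93.7 against 97.3 and 97.5. Atg16l1, the partner that completes the ATG12-ATG5 complex, stood at 92.5 and 87.1 against 93.6 and 92.7. These 4 promoters were thus high in every library. Atg3, the E2-like enzyme that hands over Atg8 proteins, was in the middle at 63.5 and 52.2 in vehicle and 62.9 and 65.9 in forskolin.

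The other E2-like gene, Atg10, had a promoter peak in vehicle replicate 1 (39.8) and forskolin replicate 1 (32.3) and in neither second replicate. The 4 ATG4 proteases trim Atg8 proteins before conjugation and release them afterwards, and the promoter peaks of their genes were of middle rank, weak or missing in some libraries. Atg4c stood at 70.4 and 42.8 in vehicle and 60.7 and 22.2 in forskolin, and Atg4d at 37.8 and 3.5 against 21.8 and 12.4. Atg4a was called in vehicle replicate 1 (21.9) and both forskolin libraries (47.2 and 12.4). Atg4b was called in forskolin replicate 1 alone, at 41.6. No ATG4 promoter peak reached percentile 90 in any library.

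The 5 Atg8 genes encode the ubiquitin-like proteins that coat the autophagosome and bind receptors. Map1lc3a had the highest percentiles of the 5, at 96.1 and 95.9 in vehicle and 98.3 and 98.7 in forskolin, over the full CRE printed above. The start of Map1lc3a lies inside an intron of another gene, Pigu. Map1lc3b, which encodes the LC3B protein commonly used to mark autophagosomes, stood at 84.3 and 77.8 in vehicle and 87.3 and 62.4 in forskolin. A stronger Map1lc3b region lay 4977 bp upstream and stood at 97.8 and 97.4 in vehicle and 98.2 and 98.0 in forskolin. Gabarap stood at 90.8 and 84.1 against 90.4 and 85.1, and Gabarapl1 at 84.3 and 75.0 against 80.6 and 82.3. For Map1lc3b, Gabarap and Gabarapl1 the treatments overlapped on this scale. Gabarapl2 had a weak vehicle peak (37.8 and 10.9) and a higher one in forskolin (74.0 and 53.3), and its treatments did not overlap, as those of Map1lc3a did not.

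Of the cargo receptors, Nbr1 had the highest promoter percentile of all 40 genes, at 99.6 and 99.5 in vehicle and 99.8 and 99.8 in forskolin. Sqstm1 encodes p62, which carries ubiquitinated cargo to Atg8 proteins, and stood at 70.4 and 40.9 in vehicle and 79.5 and 65.9 in forskolin. Optn, a receptor for damaged mitochondria and bacteria, was called in vehicle replicate 1 (16.8) and both forskolin libraries (51.5 and 74.2). Bnip3, a mitochondrial receptor, had no peak within 1 kb and, within 10 kb, 2 weak peaks (25.0 and 3.8), each in forskolin replicate 1 alone.

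MiT factor and lysosomal genes had lower promoter percentiles than the highest conjugation genes, Atg5, Atg7, Atg12 and Atg16l1. They were not below all conjugation genes: Mitf stood above Atg3 and Atg4c in every library. Tfeb, the best known regulator of lysosomal genes, stood at list percentiles 68.2 and 46.6 in vehicle and 73.6 and 53.3 in forskolin at its first start site. Mitf stood at 71.9 and 65.6 against 80.4 and 73.1, and Tfe3 was called only in forskolin, at 20.1 and 22.2. Ctsd, which encodes the aspartic protease cathepsin D, stood at 33.3 and 56.7 in vehicle and 62.4 and 53.3 in forskolin, so that the treatments overlapped. Ctsl, which encodes the cysteine protease cathepsin L, stood at 45.1 and 24.2 against 53.0 and 47.5. Lamp1 and Lamp2, which encode the main lysosomal membrane glycoproteins, and Ctsb, which encodes cathepsin B, had no called region within 10 kb of a start in any library. How far below the calling threshold those promoters lay cannot be read from a list of called peaks.

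Forskolin-only regions lay within 10 kb of a start site at 4 of 40 genes (10%). Over all protein-coding genes the share was 8.88%, and it was 16.1% over genes with any region within 10 kb. All 4 regions also lay within 1 kb: Ulk1 (16 bp upstream), Atg14 (52 bp downstream), Tfe3 (1 bp downstream) and Wipi2 (946 bp downstream). Within 1 kb the share was thus again 10%, against 3.11% of all protein-coding genes and 5.63% of genes with any region within 10 kb. The peaks at Ulk1, Atg14 and Tfe3 were weak, between percentiles 17.1 and 29.5 of the forskolin lists, where the median forskolin-only promoter peak stood at 36.1 in replicate 1 and 32.0 in replicate 2. If a score step is 1 tag, the 4 regions rest on 37 to 69 tags in forskolin replicate 1 and 13 to 27 in replicate 2. When every list was shortened to the length of the shortest, none of the 40 genes had a forskolin-only region within 10 kb, against 2.57% of all genes. The count was 7 without vehicle replicate 1, 8 without forskolin replicate 1 and 7 without forskolin replicate 2, where the shares of all genes were 15.6%, 12.3% and 17.6%. No vehicle-only region lay within 10 kb of any of the 40, where 0.414% of all protein-coding genes had one.

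Within 100 kb, 21 of 40 genes (52.5%) had a forskolin-only region, against 39.7% of all protein-coding genes and 54.4% of those with any region within 10 kb. Such a distance spans neighbouring genes, and no region is assigned to a gene by it. By the position of their centres, 17 of the 35 regions lay in introns, 6 in exons and 12 between genes. None of the 35 was within 100 kb of more than 1 of the 40. Atg14 had 5 of them and Map1lc3b 4. Most were of ordinary rank, with median percentiles of 43.7 and 32.0 against 44.6 and 32.0 over all forskolin-only regions. In 2 of 35 (5.71%) both percentiles were at least 90, against 1.87% of all forskolin-only regions. These were an intergenic region 24721 bp upstream of Atg4c (97.2 and 96.8) and an intronic region of Fbxo31, 20029 bp upstream of Map1lc3b (95.3 and 92.9). A region 49604 bp downstream of the Atg14 start, in an intron of Fbxo34, came close at 94.6 and 89.7, as did an intergenic one at 34748 bp (85.2 and 87.9). Atg2a and Atg16l1 each had a vehicle-only region within 100 kb (5% of the 40, against 2.07% of all genes), at 19941 bp and 62210 bp downstream of the start. The one near Atg2a adjoined a forskolin-only region at 19513 bp, also in an intron of Ehd1, so they may not be separate sites. When peaks within 500 bp were joined, 1 of the 40 genes had a vehicle-only region, against 0.891% of all genes. With lists of equal length, 7 of 40 genes had a forskolin-only and 7 a vehicle-only region within 100 kb, where the shares of all genes were 14.9% and 17.8%. The vehicle-only count was 4 without vehicle replicate 1, 4 without vehicle replicate 2 and 4 without forskolin replicate 2, where the shares of all genes were 4.55%, 12.1% and 3.5%.

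**Figure D2:**
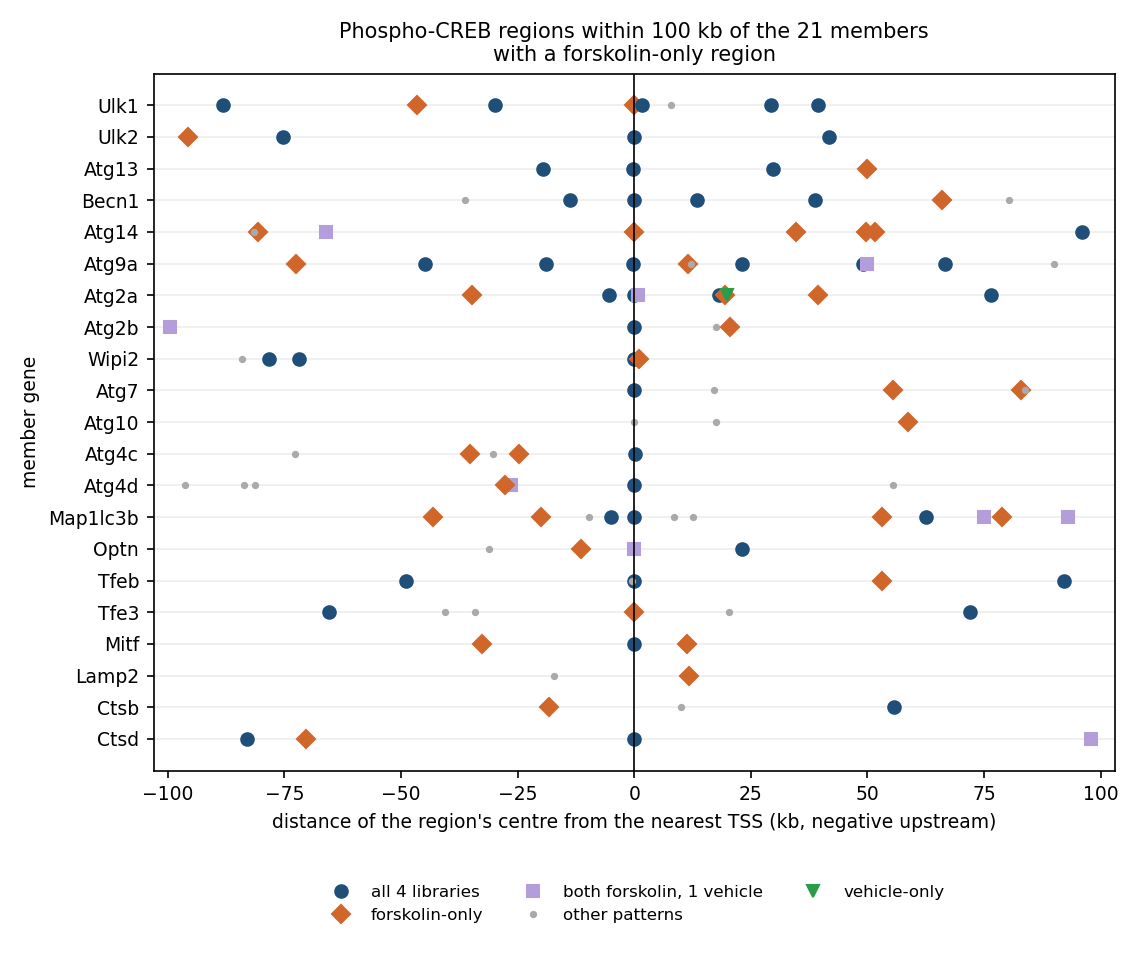
Regions within 100 kb of the 21 genes that had a forskolin-only region, by distance of the region's centre from the nearest start site (kb, negative upstream); the symbol gives the libraries in which the region was called. Forskolin-only regions (orange diamonds) sat on the start sites of Ulk1, Atg14, Tfe3 and near that of Wipi2, and elsewhere lay farther away.

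**Figure D3:**
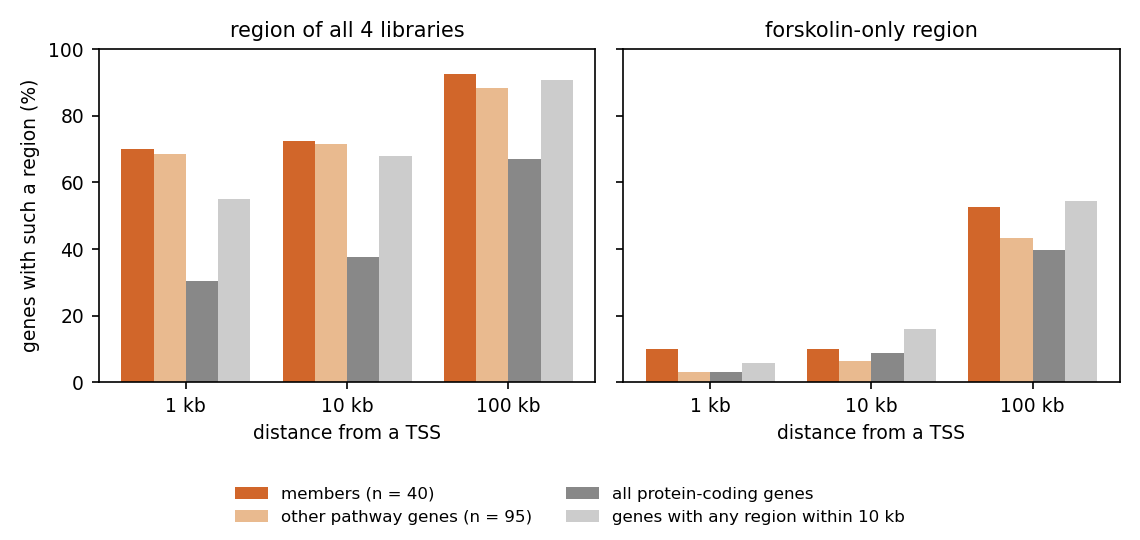
Share of genes (%, axis from 0) with a region of all 4 libraries (left) or a forskolin-only region (right) within 1, 10 and 100 kb of a start site, for the 40 genes, 95 other pathway genes, all protein-coding genes and genes with any region within 10 kb. The 40 genes stand at 70% against 30.4% of all genes for regions of all 4 libraries within 1 kb. For forskolin-only regions they stand at 10% against 3.11% within 1 kb and at 10% against 8.88% within 10 kb.

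To compare occupied promoters between treatments without the effect of list length, scores were ranked among the 8930 regions of all 4 libraries (the common rank, from 0 to 100). A region was called higher or lower under forskolin when both forskolin ranks lay beyond both vehicle ranks. Of the 29 promoter regions, 3 were higher (10.3%), where 8.16% of all 5984 promoter regions were, and 8 were lower (27.6%), where 37.6% of all were. The common rank is relative, and a fall in it shows that other regions gained more or lost less, not that phospho-CREB left the promoter. By list percentile, whose lists are longer in forskolin, 13 of 29 were higher and 0 lower, where 37.2% and 2.47% of all promoter regions were, so the direction depends on the scale. With any 1 library left out, 6 or 7 regions were higher, and 12 (without vehicle replicate 1), 19 (without vehicle replicate 2), 13 (without forskolin replicate 1) or 13 (without forskolin replicate 2) were lower. With 1 library in a group the rule is easier to meet: over all promoter regions 13.6% to 21.3% were then higher and 50.6% to 60.6% lower, against 20% to 23.3% and 40% to 59.4% of the regions at the listed genes.

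Gabarapl2 had the largest rise, from common ranks 17.3 and 8.8 in vehicle to 43.9 and 28.9 in forskolin, a mean difference of 23.3 points, and it was higher on both scales. Map1lc3a rose from 93.6 and 95.3 to 95.5 and 97.3 (1.9 points, and 1.0 without vehicle replicate 1 or without forskolin replicate 2) and the Nbr1 start site from 99.3 and 99.4 to 99.5 and 99.5 (0.1 points), both near the top of the scale where little room is left. These 3 regions all hold a CRE core, as do 3 of the 8 that were lower and 268 of the 488 promoter regions ranked higher over all genes.

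The largest falls in common rank were at Atg2b and Atg4c. Atg2b went from 59.5 and 55.2 in vehicle to 31.0 and 17.5 in forskolin (a difference of -33.1 points), and Atg4c from 53.8 and 38.1 to 23.0 and 7.6 (-30.6 points). By list percentile the differences were -13.5 and -15.2 points, and the treatments of both genes overlapped. Map1lc3b went from 74.8 and 75.2 to 69.9 and 39.1 (-20.5 points), most of it in forskolin replicate 2, the library with the larger score step, without which the difference was -4.9 points. Gabarapl1 went from 74.8 and 72.0 to 56.3 and 67.7 (-11.4 points), Atg3 from 44.3 and 47.6 to 26.0 and 43.6 (-11.2 points) and Gabarap from 85.2 and 82.1 to 76.6 and 72.3 (-9.2 points). Without forskolin replicate 1 the difference was -2.3 points at Atg3, -5.7 at Gabarapl1 and -35.8 at Map1lc3b, and without forskolin replicate 2 it was -19.4 points at Atg3. The other 2 lower regions were at Atg16l1 (-2.0 points, and -0.9 without vehicle replicate 1 or -1.2 without forskolin replicate 1) and Atg13 (-0.8 points, and -0.5 without vehicle replicate 2). By list percentile the differences of Gabarapl1, Atg3, Gabarap, Atg16l1 and Atg13 had the opposite sign, from 0.3 to 6.6 points.

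At the other 17 genes the common ranks of the treatments overlapped. They included Sqstm1 (53.8 and 36.2 in vehicle, 54.1 and 43.6 in forskolin), Tfeb (50.7 and 41.8 against 43.3 and 28.9) and Ctsd (13.9 and 52.3 against 25.3 and 28.9). Over all 29 promoter regions the vehicle libraries differed from each other by up to 38.4 points and the forskolin libraries by up to 30.8 points, with medians of 3.5 and 6.9 points. Only Gabarapl2, Atg2b and Atg4c had a gap of at least 10 points between the treatments, and across all promoter regions 2.39% rose and 9.21% fell by that rule.

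**Figure D4:**
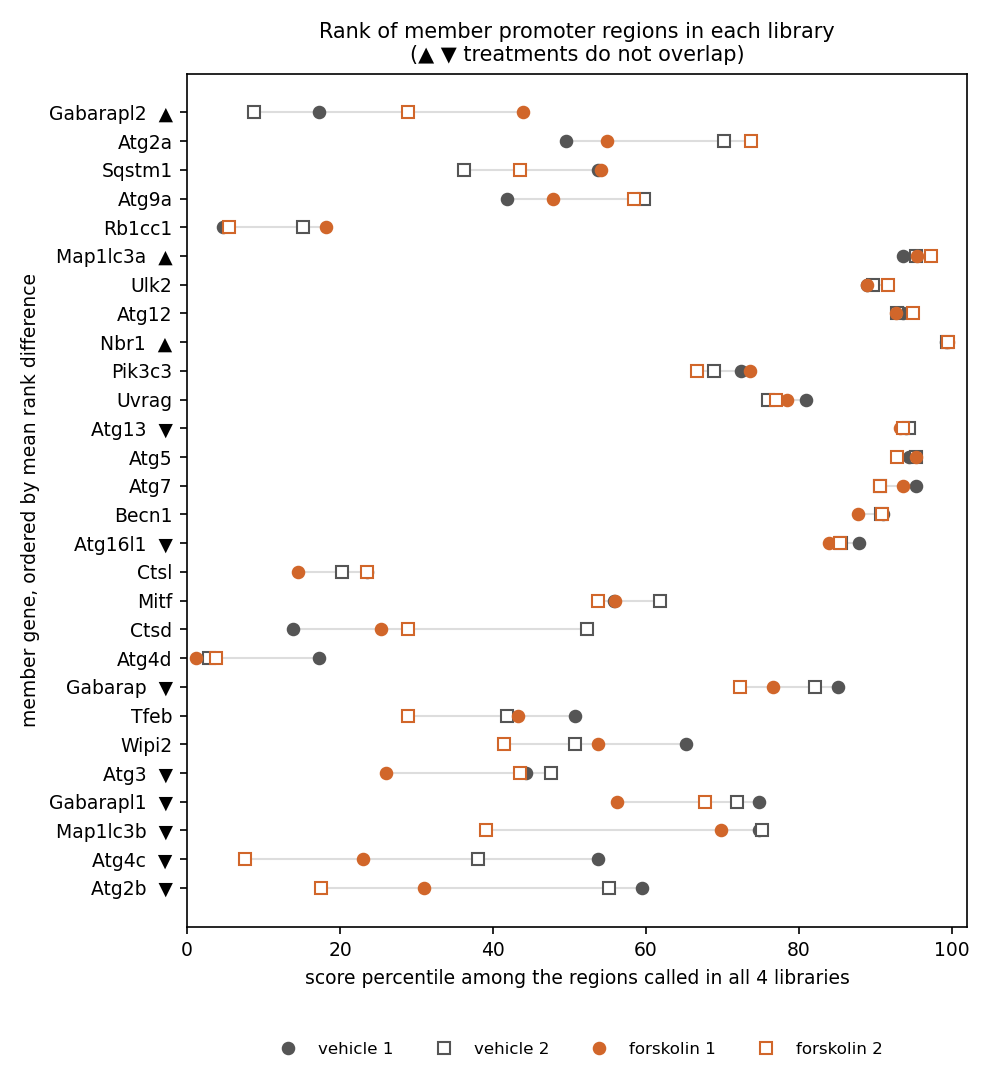
Common rank (score percentile among the regions called in all 4 libraries, 0 to 100) of the promoter region nearest a start site of 28 genes, 1 symbol per library, ordered by mean rank difference. Triangles beside the names mark the 11 genes whose treatments do not overlap, with Gabarapl2 at the top (23.3 points) and Atg2b at the bottom (-33.1 points).

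CRE letters were found mostly at the promoters with high-ranking peaks. A core (TGACG, either strand, within 100 bp of the region's centre) was present in 13 of the 29 promoter regions of all 4 libraries (44.8%), against 42.7% of all 5984. The full CRE (TGACGTCA, in which the search counts 2 cores) was present at Atg5, Becn1 and Map1lc3a (10.3%), against 7.32% of all. All 8 promoter regions above list percentile 95 in forskolin replicate 1 held a core: those of Atg5, Atg7, Atg12, Atg13, Ulk2, Becn1, Map1lc3a and Nbr1. Among the other 21 regions 5 held one (23.8%), at Atg16l1, Map1lc3b, Gabarapl2, Sqstm1 and Ctsl. Over all promoter regions the shares were 86.6% above and 35.4% at or below that percentile, so the split is that of phospho-CREB promoters in general. Regions with a core had median percentiles of 94.5 and 91.8 in vehicle and 95.7 and 95.5 in forskolin, against 69.3 and 58.0 and then 74.8 and 65.1 for those without. A match to these letters is a description of the sequence and shows no binding site.

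The lysosomal element was rare at these promoters. The CLEAR letters (TCACGTGA, which contain the E-box CACGTG) were present at 1 of 29 regions, Ctsd (3.45%, against 1.6% of all promoter regions). They were centred 52 bp from the region's centre and 68 bp upstream of an internal start site, downstream of the outermost start of Ctsd. The plain E-box was present at 2, Atg5 and Ctsd (6.9%, against 9.01%). The AP-1 letters (TGAGTCA) were present at 1, Rb1cc1 (3.45%, against 2.36%). Among the 4 forskolin-only promoter regions, 1 core (Ulk1, 88 bp from the centre and outside the printed window), 1 E-box (Atg14) and 1 AP-1 match (Tfe3) were found. Over all 670 forskolin-only promoter regions the shares were 34% for the core, 5.52% for the E-box and 11.3% for the AP-1 letters. Of the 35 forskolin-only regions within 100 kb, 15 held AP-1 letters (42.9%, against 21.8% of all forskolin-only regions), 17 held a CRE core (48.6% against 38.6%) and 0 held a full CRE (3.59% of all).

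Other genes of the same pathway were occupied at about the share of the 40. Of 95 such genes, 65 (68.4%) had a promoter region called in all 4 libraries, and 6 (6.32%) had a forskolin-only region within 10 kb. The V-ATPase, the proton pump that acidifies the lysosome, had the fullest occupancy with 15 of 16 subunit and accessory genes, Atp6v1g1 being the exception. Membrane fusion genes followed with 9 of 11, then mTORC1 and AMPK nutrient control with 13 of 20, lysosomal enzymes and membrane proteins with 17 of 29, and further autophagy factors with 11 of 19. Genes with a forskolin-only region within 10 kb included the mitophagy genes Fundc1 and Pink1, the fusion gene Vamp8 and the pump subunit gene Atp6v0a1. The count of such genes was 17 without vehicle replicate 1, 11 without forskolin replicate 1, 19 without forskolin replicate 2 and 2 with lists of equal length, where the shares of all genes were 15.6%, 12.3%, 17.6% and 2.57%.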

How the data were processed

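Phospho-CREB chromatin immunoprecipitation was compared between 2 vehicle and 2 forskolin libraries, grouped and numbered by their titles. The deposited files are 1 peak list per library with a score per peak, made by the authors with Bowtie and HOMER on mm9, per the submitters' processing notes. The sources used here give no versions, calling thresholds or scale for the score. An input library named in the labels was not analysed here. The number of sequenced tags per library is unknown. Scores below 50 fell on steps of 0.2320, 0.2242, 0.2387 and 0.6884, which gave relative depths if 1 step is 1 tag.

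Peaks sharing at least 1 bp were merged, and the distance from each region's centre to the nearest annotated 5′ end (GENCODE on NCBIM37, whose chromosome lengths matched mm9) was taken with Python 3.11.15, numpy 2.4.6 and pysam 0.24.0. Merging was tested on simulated peaks. Tfeb and Tfe3 were matched through RefSeq synonyms. For motifs, the sequence from 100 bp before to 100 bp after the centre was read on both strands. Values per library are given for genes with a forskolin-only region, the up to 6 largest rank changes each way, genes with a full CRE or CLEAR element, and 7 genes that stand for the roles; further genes were named to account for all 40. The 40 genes and the other lists were chosen with earlier results of these data known. Alternatives covered merging, list length, score threshold, left-out libraries, start site choice, rank scale and motif window.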

Additional observations from a re-analysis of the deposited data

How the results depend on the processing

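Peak calls limit all counts: a promoter without a peak may lie just under an unstated threshold, and list lengths differed between treatments. Regions of all 4 libraries within 1 kb were found at 19 (top 50% of each list) to 31 (without vehicle replicate 2) of the 40 genes under the alternatives run, where 18.7% and 34.6% of all genes had one. Forskolin-only regions within 10 kb (4 genes) numbered 0 with equal list lengths, where 2.57% of all genes had one. They numbered 6 to 8 with 1 library left out, where 10.1% to 17.6% of all genes had one. With the top 50% of each list they numbered 5, where 5.61% of all genes had one, and Wipi2 was the only 1 of the original 4. Forskolin-only regions within 100 kb (21 genes) numbered 7 with equal list lengths, where 14.9% of all genes had one. Vehicle-only regions within 100 kb (2 genes) numbered 1 with peaks within 500 bp joined, 0 with the top 50% of each list and 7 with equal list lengths. The shares of all genes were then 0.891%, 1.21% and 17.8%. With 1 library left out the vehicle-only count was 3 to 4, where 3.5% to 12.1% of all genes had one. Among the 95 other pathway genes, the count with a region of all 4 libraries (65) was 38 with the top 50% of each list, and the forskolin-only count (6) was 2 with equal list lengths and 6 to 19 with 1 library left out.

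Promoter regions ranked higher (3) numbered 13 by percentile within each whole list, 1 with a shift of at least 10 points and 6 to 7 with 1 library left out; those ranked lower (8) numbered 0, 2 and 12 to 19. By percentile within each whole list the differences reversed for Atg13 (1.5), Atg16l1 (3.3), Atg3 (6.6), Gabarap (0.3) and Gabarapl1 (1.8). That scale counts regions not shared by the libraries, and the forskolin lists are longer. Whether list length accounts for the reversals was not tested. Deviations of same-numbered libraries correlated at 0.09 over the promoter regions called in all 4 libraries. Because it covers only ranks of shared regions, that value cannot decide whether the libraries were prepared in pairs. With a replicate block 5 regions were higher and 11 lower, against 13.2% and 49.1% of all promoter regions. The CRE core count (13) was 18 in whole regions and 11 within 50 bp of the centre, against 54.5% and 31.8% of all promoter regions. In the same windows the CLEAR count (1) was 2 and 0, against 2.66% and 0.836% of all promoter regions. For the other moved counts, the cause was not tested.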
